A study of Mus musculus with 17 samples.

Results

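Brown adipose tissue (BAT) of mice that lacked Acbp in brown adipocytes was compared with wild-type BAT after a high-fat diet (HFD). The comparison used the 10 HFD libraries of the 17 in the study, chosen by the genotype and diet that their labels give: 5 HFD knockout (Acbp BAd-KO) and 5 HFD wild-type. All mice were C57BL/6J, a common inbred strain, were housed at 22 °C and ate a diet with 45% of its kcal from fat for 12 weeks. The other 7 libraries, 3 knockout and 4 wild-type, came from mice on standard chow and entered the model fit. No source used here gives the Cre driver, whether wild-type mice carried floxed alleles, the age of the mice or whether tissue was pooled. Whether the 5 samples of a group are 5 animals is not stated either, so each p value reflects only the spread among the samples at hand, which may be technical. RNA sequencing counts per gene were available for 55414 genes, and 17717 passed the count filter. Levels are CPM, counts scaled for library size, here with trimmed mean of M-values (TMM) factors. Changes are log2 ratios of knockout over wild-type with a standard error (SE), and a gene was called at an adjusted p of 0.05 or less.

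Brown adipocytes burn fatty acids in mitochondria and release the energy as heat through the uncoupling protein UCP1. Fatty acids enter these and most other pathways as acyl-CoA esters. Acyl-CoA-binding protein, encoded by Acbp (annotated as Dbi), holds such esters of medium and long chains in the cytosol and carries them between the enzymes that make, desaturate, elongate, store or oxidise them.

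Dbi, the deleted gene, was measured first. It stood at 126, 121, 111, 165 and 118 CPM in HFD knockout 1 to 5, against 701, 690, 658, 795 and 662 CPM in HFD wild-type 1 to 5. The groups were far apart, and every knockout library retained some Dbi transcript. Dbi fell to 0.183 of the wild-type level, a log2 change of -2.45 ± 0.10 (SE, n = 5 each, adjusted p = 6.39e-10). The adjusted p was 1.41e-08 or less with any 1 HFD library left out. The genotype labels were therefore matched by the transcript in all 10 libraries. Brown adipocyte markers were present in all of them, with a summed level of 5318 to 7902 CPM in HFD knockout and 3983 to 6961 CPM in HFD wild-type over 19 markers, none of them at 0.

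The libraries differed in depth, in RNA of other tissues and in their library numbers. Depth was 60.2 to 101 megacounts in HFD knockout libraries and 60 to 105 megacounts in HFD wild-type libraries. The summed level of 30 skeletal muscle markers was 15737, 3690 and 3781 CPM in HFD knockout 2, 4 and 5 and 78.5 and 109 CPM in knockout 1 and 3, against 9635 CPM in HFD wild-type 1 and 69.7 to 98.3 CPM in wild-type 2 to 5. Muscle RNA was thus high in 3 knockout libraries and 1 wild-type library, and the difference of 2.37 in the muscle score, the log2 of that sum, did not pass an exact permutation test between genotypes (two-sided p = 0.325, adjusted p = 0.488 over 6 library measures). The summed level of 28 hepatocyte transcripts was above 300 CPM in HFD knockout 4 and 5, at 332 and 431 CPM, and in HFD wild-type 5, at 331 CPM, and lay between 43.4 and 126 CPM in the other 7. The TMM factor averaged 1.06 ± 0.038 in HFD knockout and 1.17 ± 0.097 in HFD wild-type (SD, n = 5 each), with an exact permutation p of 0.0317 and an adjusted p of 0.0952. The 10 most abundant genes took 33.1% of counts in HFD knockout and 30.0% in HFD wild-type (exact permutation p = 0.0159, adjusted p = 0.0952). Scd1, described below, was among them, at means of 70708 CPM in HFD knockout and 38016 CPM in HFD wild-type. The share is thus not separate from the level of Scd1. HFD knockout 1 has a library number that directly follows those of the 5 wild-type libraries, while knockout 2 to 5 have numbers apart from them. For these 4 libraries, genotype and any difference tied to the library number cannot be told apart. All 5 knockout numbers are above all 5 wild-type numbers, so a trend with library number cannot be told apart from genotype for knockout 1 either.

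**Figure D1:**
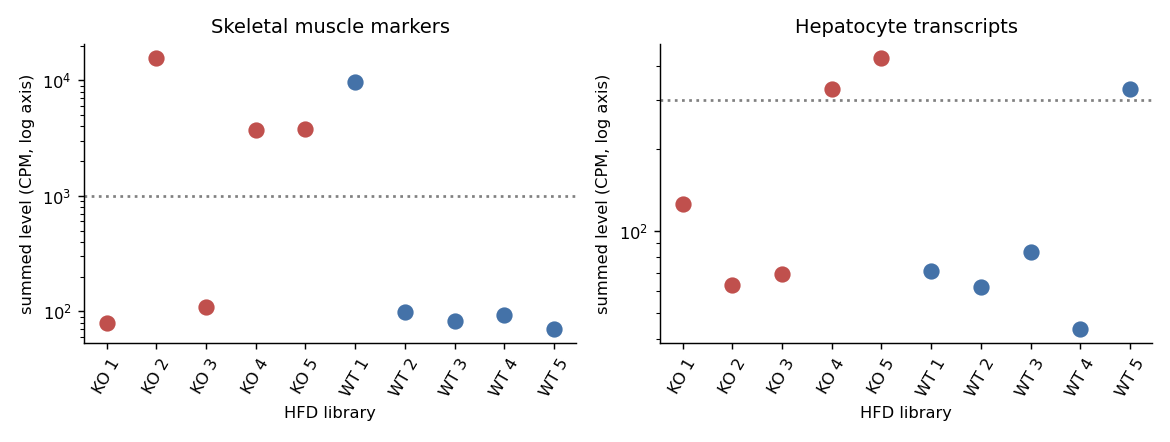
Summed level of 30 skeletal muscle markers (left) and 28 hepatocyte transcripts (right) in CPM on log axes, 1 point per HFD library, knockout in red and wild-type in blue. Dotted lines mark 1000 and 300 CPM, above which a library is called muscle-rich or liver-rich: knockout 2, 4 and 5 and wild-type 1 on the left, knockout 4 and 5 and wild-type 5 on the right.

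In HFD knockout BAT, 95 genes changed, which is 0.536% of the genes tested. Of these, 55 rose (0.31% of genes tested) and 40 fell (0.226%). Most changes were small, and 8 of the rises and 11 of the falls were 2-fold or more. Enzymes of lipid metabolism, cytosolic chaperones and proteasome subunits were among the rises, and membrane receptors and transcriptional regulators were among the falls. In 87 of the 95 genes the 5 knockout and 5 wild-type values did not overlap, as in 3.6% of all genes tested. All knockout values were higher in 51 of these and lower in 36, as in 1.66% and 1.94% of all genes tested. With library totals in place of TMM factors the median of all genes shifted by -0.15, and 33 genes were called higher and 388 lower. At an unadjusted p under 0.05 in either direction were 2256 of the 17717 genes tested, or 2109 with the muscle score and 3886 with library totals. Without the muscle-rich libraries it was 712 of 17254, and in the HFD libraries alone 2413 of 16805. Counts of list members at that p are to be read beside these totals.

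Muscle RNA was taken into account in 2 ways. With the muscle score as a covariate 62 genes were called, 39 higher and 23 lower (0.35% of genes tested), and 46 of them were among the 95. All 95 kept their direction, which says little about muscle RNA because the same libraries chose these genes. Differences were also taken in the low-muscle libraries alone, HFD knockout 1 and 3 over HFD wild-type 2 to 5. These libraries took part in choosing the 95 genes, and where the groups do not overlap the sign in any subset is fixed, so the signs there say nothing about muscle RNA and only the sizes are given. The muscle score itself was associated with 452 genes (2.55%), of which 436 (2.46%) were higher with more muscle RNA, including all 30 muscle markers. Of these 452 genes only Col6a6 was among the 95.

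The number of calls depended on single libraries. It was 149, 35, 50, 20 and 41 without HFD knockout 1, 2, 3, 4 or 5, against 30, 26, 37, 56 and 207 without HFD wild-type 1, 2, 3, 4 or 5. Of the 95 genes, 19 were called whichever library was left out, 13 of them higher and 6 lower. Without the 4 muscle-rich libraries 5 genes were called, among them Dbi, Scd1, Insig1 and Sugct. Without the 3 liver-rich libraries 19 were called. A fit of the 10 HFD libraries alone called 17 genes. With library number as a covariate in those 10, an alternative chosen after seeing the data, edgeR called Dbi alone, with 407 genes at an unadjusted p under 0.05. All knockout library numbers are above all wild-type ones, so a call lost in that fit does not separate library number from genotype.

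**Figure D2:**
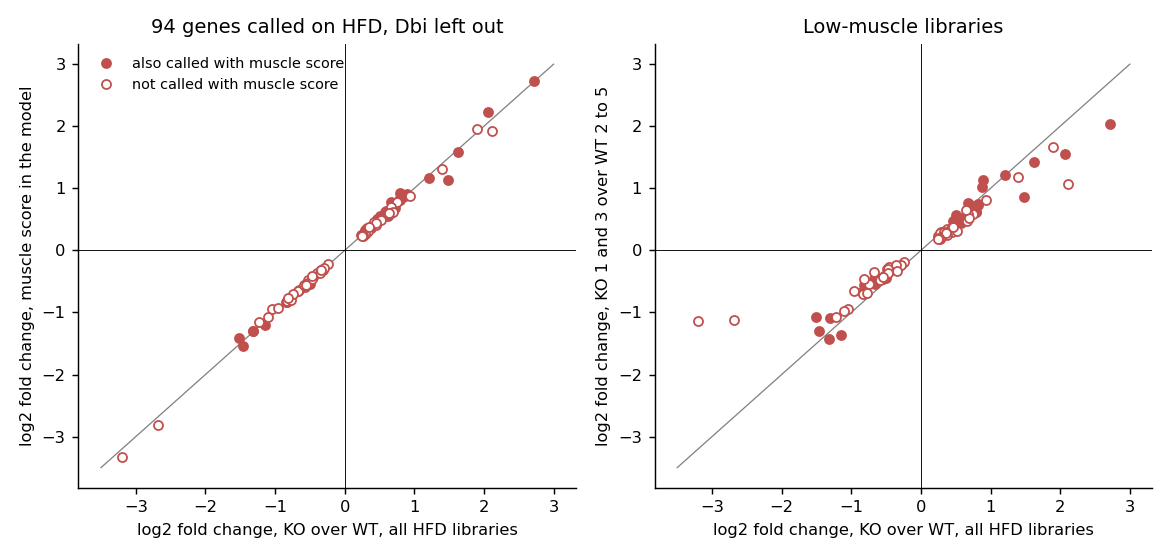
Log2 fold change of HFD knockout over HFD wild-type for the 94 called genes other than Dbi, from all HFD libraries on both horizontal axes, against the value with the muscle score in the model (left) and the value in low-muscle libraries, knockout 1 and 3 over wild-type 2 to 5 (right). Filled points were also called with the muscle score, open points were not, and the diagonal marks equal values; the low-muscle libraries are part of those that chose the genes.

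Scd1 and Insig1, a desaturase and a regulator of sterol synthesis, rose by over 1.8-fold. Scd1, stearoyl-CoA desaturase, which makes monounsaturated from saturated acyl-CoA, stood at 79784, 77615, 79201, 63409 and 53531 CPM in HFD knockout 1 to 5, against 45623, 36718, 37954, 33567 and 36220 CPM in HFD wild-type 1 to 5. Every knockout library was above every wild-type library, and the highest wild-type value was in the muscle-rich library. Scd1 rose 1.86-fold, a log2 change of 0.90 ± 0.14 (adjusted p = 0.0095), with 0.90 ± 0.15 with the muscle score (adjusted p = 0.0149) and 1.14 in the low-muscle libraries. Insig1 encodes a membrane protein of the endoplasmic reticulum that holds back the sterol-sensing complex of SREBP transcription factors and is itself a target of SREBP. Its level was 329, 341, 413, 345 and 329 CPM in HFD knockout 1 to 5, against 227, 175, 196, 189 and 175 CPM in HFD wild-type 1 to 5. The groups did not overlap here either. Insig1 rose 1.83-fold, with a log2 change of 0.87 ± 0.09 (adjusted p = 0.000418; 0.00113 with the muscle score). The calls of Scd1 and Insig1 held with each HFD library left out, at adjusted p up to 0.0391 and 0.00266. The call of Scd1 ended in a fit of the HFD libraries only (adjusted p = 0.0767; 0.127 with the muscle score added), with the replicate block (0.0981; 0.211 with the muscle score), in HFD knockout 1 against wild-type (0.959), without muscle-rich or liver-rich libraries (0.176) and with library number as a covariate (1), at log2 differences of 0.88 to 1.25. That of Insig1 held in the HFD libraries only (adjusted p = 0.00557) and ended with the replicate block and muscle score together (0.0506), in HFD knockout 1 against wild-type (0.688), without muscle-rich or liver-rich libraries (0.0508) and with library number (1), at 0.77 to 0.99.

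Of 21 cholesterol synthesis genes, 2 rose and 1 fell, against 0.31% and 0.226% of all genes tested. Above the wild-type level were 17, with a median log2 change of 0.28 against 0.00097 over all genes tested. Cyp51, lanosterol demethylase, stood at 27.4, 32.0, 33.0, 29.9 and 24.7 CPM in HFD knockout 1 to 5, against 19.4, 20.8, 20.4, 21.2 and 24.8 CPM in HFD wild-type 1 to 5. HFD knockout 5 lay just below HFD wild-type 5, and the other knockout libraries were above all wild-type ones. Cyp51 rose by 0.46 ± 0.09 (log2, adjusted p = 0.0368; 0.0351 with the muscle score). Sqle, squalene epoxidase, averaged 13.3 ± 1.61 CPM in HFD knockout and 8.55 ± 1.39 CPM in HFD wild-type (SD, n = 5 each) and rose by 0.64 ± 0.13 (adjusted p = 0.0442; 0.0815 with the muscle score). Hmgcs1, the cytosolic HMG-CoA synthase of an early step, went the other way. It stood at 297, 271, 269, 273 and 281 CPM in HFD knockout 1 to 5, against 335, 402, 358, 356 and 314 CPM in HFD wild-type 1 to 5. The ranges were separate, and Hmgcs1 fell by 0.34 on the log2 scale (SE 0.07, adjusted p = 0.0481; 0.118 with the muscle score). Pmvk, phosphomevalonate kinase, had a log2 difference of 0.69 ± 0.15 that did not pass (adjusted p = 0.0539). The calls of Cyp51, Sqle and Hmgcs1 ended without any 1 of HFD knockout 2, 3 or 4 or HFD wild-type 1, 2, 3 or 4, those of Sqle and Hmgcs1 also without HFD knockout 5, at adjusted p up to 0.111, 0.145 and 0.147. The list's median stayed between 0.25 and 0.35 without each library in turn and was 0.30 without the muscle-rich libraries, where no member was called by edgeR and 6 were higher at an unadjusted p under 0.05.

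To show the promoters of the sterol genes that moved in opposite directions, the 250 bases before the RefSeq transcript start are printed for the 3 genes with a RefSeq promoter entry (build GRCm38.p6; written along the gene's own strand). Capitals mark the sterol response motif TCACNCCAC, the CCAAT box and the E-box CACGTG, searched on both strands without overlaps between them.
Insig1 (chr5:28071162-28071411, plus strand): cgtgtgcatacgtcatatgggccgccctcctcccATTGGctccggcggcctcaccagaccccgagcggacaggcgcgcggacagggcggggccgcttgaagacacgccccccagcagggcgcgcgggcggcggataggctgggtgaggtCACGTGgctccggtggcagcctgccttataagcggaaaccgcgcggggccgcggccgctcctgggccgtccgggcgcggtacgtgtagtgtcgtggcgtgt
Cyp51 (chr5:4104698-4104947, minus strand): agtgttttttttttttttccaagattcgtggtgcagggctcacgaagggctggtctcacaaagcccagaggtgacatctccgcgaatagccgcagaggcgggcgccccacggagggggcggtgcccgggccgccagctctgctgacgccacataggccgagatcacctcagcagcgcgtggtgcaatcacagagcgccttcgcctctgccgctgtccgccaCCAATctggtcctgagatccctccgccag
Hmgcs1 (chr13:119690101-119690350, plus strand): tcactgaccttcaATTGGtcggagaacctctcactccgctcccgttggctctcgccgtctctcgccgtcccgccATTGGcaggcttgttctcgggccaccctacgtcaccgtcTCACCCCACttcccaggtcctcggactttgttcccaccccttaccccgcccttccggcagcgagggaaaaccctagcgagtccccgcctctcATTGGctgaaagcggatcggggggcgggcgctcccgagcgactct

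The window of Hmgcs1, the gene that fell, held 1 sterol motif and 3 CCAAT boxes. The window of Insig1 held 1 CCAAT box and 1 E-box, and that of Cyp51 held 1 CCAAT box. Only the form TCACNCCAC of the sterol motif was searched for. A window without it can still hold other forms, so its absence is not the absence of a sterol element. Over 32851 such windows in the RefSeq table, 1.05% held the sterol motif, 33.8% a CCAAT box and 6.02% the E-box. Scd1 and Sqle were searched for in the same table and had no entry.

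**Figure D3:**
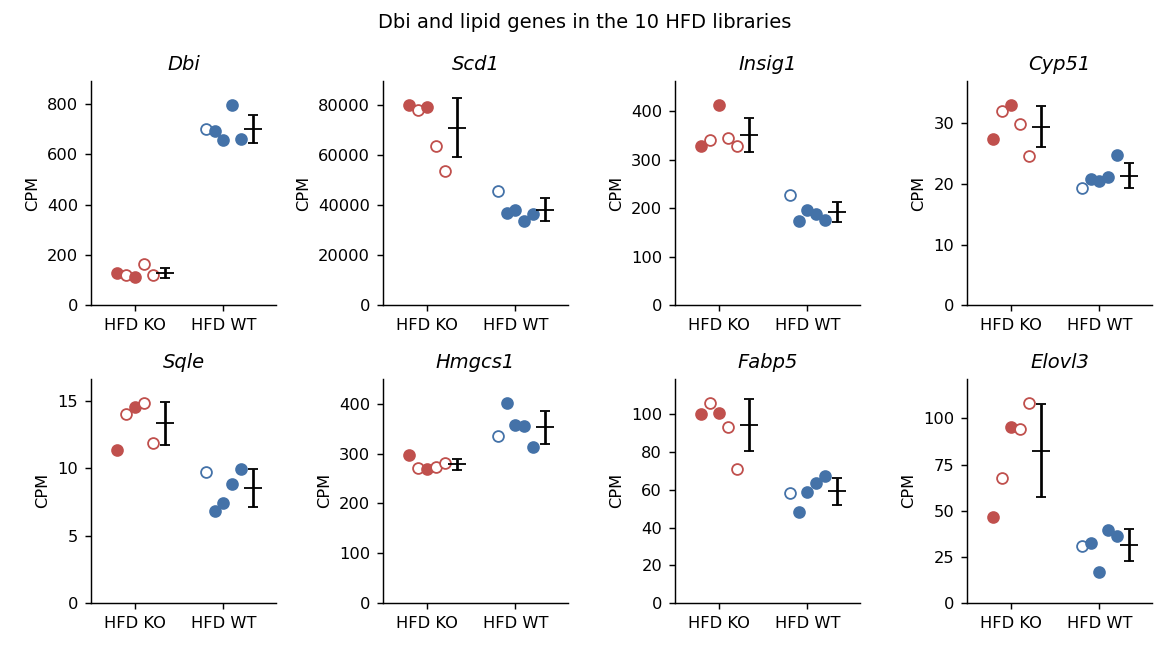
Level in CPM (vertical axes, from 0) of Dbi and 7 lipid genes in the 10 HFD libraries, knockout in red to the left and wild-type in blue to the right, with the mean and SD (n = 5) in black beside the points. Open points are the muscle-rich libraries, knockout 2, 4 and 5 and wild-type 1; Dbi and Hmgcs1 are lower in knockout and the other 6 genes higher, with overlap between genotypes in Cyp51 alone.

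Of 31 genes of fatty acid synthesis, desaturation and elongation, 2 rose and none fell, against 0.31% and 0.226% of all genes tested. In this list 27 were above the wild-type level, with a median of 0.25. The second rise besides that of Scd1 was in Elovl3, an elongase of very-long-chain acyl-CoA that is abundant in brown fat. Elovl3 stood at 46.3, 67.9, 95.6, 94.4 and 109 CPM in HFD knockout 1 to 5, against 30.9, 32.4, 16.8, 39.8 and 36.5 CPM in HFD wild-type 1 to 5. HFD knockout 1 was the lowest of its group and still above every wild-type library. Elovl3 rose 2.64-fold, by 1.40 ± 0.27 on the log2 scale (adjusted p = 0.0337), with an adjusted p of 0.067 with the muscle score and of up to 0.106 with 1 library left out. The call ended without HFD knockout 2, 3, 4 or 5 or HFD wild-type 1, 2 or 3. The log2 difference of Elovl3 was smaller in HFD knockout 1 against wild-type, at 0.57. With library number as a covariate in the HFD libraries it was 0.31, and Elovl3 was not called. Scd2, another desaturase, and Acacb, the mitochondrial acetyl-CoA carboxylase, had log2 differences of 0.70 ± 0.20 and 0.49 ± 0.13 that did not pass (adjusted p = 0.123 and 0.104). In the list of 24 genes of SREBP control, sterol uptake and efflux, Insig1 was the 1 gene that rose, none fell, and the median was -0.022.

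The list of genes that bind, make or hydrolyse acyl-CoA held 33 tested genes, with Fabp5 among them and without Dbi. Of these, 3 rose and none fell, against 0.31% and 0.226% of all genes tested, with a median of 0.17. At an unadjusted p under 0.05, 8 were higher and none lower, against 2256 of all 17717 genes tested in either direction. The median was 0.080 in the low-muscle libraries and 0.054 in HFD knockout 1 over wild-type. With library totals, which move the median of all genes to -0.15, it was 0.026. There 5 were higher and 4 lower at an unadjusted p under 0.05. In the fit of the HFD libraries alone no member was called, and 9 were higher at that p. With library number added as a covariate the median was 0.0068, with no call and 1 higher at that p. Fabp5, a cytosolic fatty acid-binding protein, stood at 100, 106, 101, 93.2 and 71.0 CPM in HFD knockout 1 to 5, against 58.2, 48.3, 58.8, 63.5 and 67.2 CPM in HFD wild-type 1 to 5. The lowest knockout library, number 5, was a little above the highest wild-type library, also number 5. Fabp5 rose by 0.67 ± 0.13 (adjusted p = 0.0272; 0.0408 with the muscle score). Acsf2, a mitochondrial medium-chain acyl-CoA synthetase, averaged 144 ± 12.6 CPM in HFD knockout and 103 ± 12.8 CPM in HFD wild-type (SD, n = 5 each) and rose by 0.49 ± 0.09 (adjusted p = 0.0262; 0.0449 with the muscle score). Acsl3, a long-chain acyl-CoA synthetase found on lipid droplets, stood at 21.0 to 39.6 CPM in HFD knockout and 14.5 to 18.0 CPM in HFD wild-type and rose by 0.75 ± 0.16 (adjusted p = 0.0481; 0.0764 with the muscle score). Its highest value was in HFD knockout 5. Fabp5, Acsf2 and Acsl3 each lost the call with 5 to 8 of the 10 libraries left out in turn, HFD knockout 4 and HFD wild-type 1, 2 and 3 among them for each gene, at adjusted p up to 0.129. With library number as a covariate in the HFD libraries their log2 differences were 0.78, 0.24 and 0.20.

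Outside the lists, 2 further acyl-CoA enzymes rose and held with every library left out. Echdc1, an ethylmalonyl-CoA decarboxylase that repairs a side product of fatty acid synthesis, stood at 190, 195, 188, 213 and 188 CPM in HFD knockout 1 to 5, against 134, 138, 115, 153 and 138 CPM in HFD wild-type 1 to 5. Sugct, a mitochondrial enzyme that moves CoA between succinate and glutarate, stood at 11.9, 12.9, 12.1, 11.2 and 10.3 CPM in HFD knockout 1 to 5, against 7.66, 7.37, 6.80, 7.5 and 6.74 CPM in HFD wild-type 1 to 5. For both genes the lowest knockout library was well above the highest wild-type one. The log2 changes were 0.52 ± 0.07 for Echdc1 (adjusted p = 0.00426, and 0.0121 with the muscle score) and 0.70 ± 0.07 for Sugct (adjusted p = 0.00039, and 0.00113 with the muscle score). Across all alternatives to the main fit, the call ended in 7 for Echdc1 and in 4 for Sugct. Without the muscle-rich libraries Echdc1 was not called (edgeR adjusted p = 0.590) and Sugct was (0.0109). With library number as a covariate neither was called, at log2 differences of 0.46 and 0.80.

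The list with the most rises was that of cytosolic chaperones, which fold new proteins and bind denatured ones. The lists were chosen with earlier results of these data known, so this rank is not independent of the data. Of 36 genes of this list, 10 rose and none fell, against 0.31% and 0.226% of all genes tested. Above the wild-type level were 35, against 50.3% of all genes tested, with a median of 0.46 against 0.00097. With the muscle score 10 were again called higher, and the median was 0.48; in the low-muscle libraries it was 0.36. Of the 10, 6 are known partners or forms of HSP90, a chaperone of signalling proteins. Stip1, the adaptor that passes clients between HSP70 and HSP90, stood at 75.6, 71.8, 102, 94.7 and 112 CPM in HFD knockout 1 to 5, against 42.9, 47.6, 49.0, 56.2 and 61.4 CPM in HFD wild-type 1 to 5. The groups were separate, and the wild-type values climbed in the order of the library numbers. Stip1 rose by 0.83 ± 0.12 (adjusted p = 0.00684; 0.0105 with the muscle score). Hsp90ab1, the constitutive cytosolic HSP90, stood at 667, 627, 778, 793 and 866 CPM in HFD knockout 1 to 5, against 421, 500, 458, 578 and 519 CPM in HFD wild-type 1 to 5. No wild-type library reached the lowest knockout library, and Hsp90ab1 rose by 0.59 ± 0.10 (adjusted p = 0.0129; 0.021 with the muscle score).

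Ahsa1 and Ahsa2, activators of the HSP90 ATPase, rose by 0.58 ± 0.11 and 0.79 ± 0.12 (adjusted p = 0.0368 and 0.0095). Ptges3, the p23 co-chaperone, rose by 0.37 ± 0.08, Chordc1, an HSP90-binding protein, by 0.67 ± 0.14, and Cacybp, a partner of the SIAH1 ubiquitin ligase, by 0.49 ± 0.08 (adjusted p = 0.0481, 0.0499 and 0.0129). The DNAJ co-chaperones of HSP70 among the 10 also rose: Dnaja1 by 0.79 ± 0.17, Dnaja4 by 0.67 ± 0.14 and Dnajb4 by 0.42 ± 0.09 (adjusted p = 0.0481, 0.043 and 0.0481). Dnajb2, a DNAJ protein that binds ubiquitin chains, was outside the list. It stood at 41.1, 42, 47.2, 50.7 and 51.0 CPM in HFD knockout 1 to 5, against 28.1, 30.7, 28.7, 33.3 and 30.5 CPM in HFD wild-type 1 to 5, with no overlap, and rose by 0.62 ± 0.07 (adjusted p = 0.000842).

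Hsph1, Hspa8 and Hspb1 had log2 differences of 1.34 ± 0.30, 0.56 ± 0.12 and 0.80 ± 0.18 that missed the threshold (adjusted p = 0.0578, 0.0578 and 0.0666) and were called with the muscle score (adjusted p = 0.0408, 0.0483 and 0.0481). Hsph1, the HSP110 nucleotide exchange factor, stood at 127, 114, 192, 177 and 239 CPM in HFD knockout 1 to 5, against 27.7, 46.7, 54.8, 88.6 and 118 CPM in HFD wild-type 1 to 5, and HFD wild-type 5 overlapped the knockout range. The 5 wild-type values of Hsph1 climbed in the order of their library numbers, and with library number as a covariate the difference was 0.44 (adjusted p = 1). Dnaja4, Dnajb4 and Ptges3 were not called with the muscle score (adjusted p = 0.0809, 0.0689 and 0.0911). Stip1, Ahsa2 and Dnajb2 were called whichever library was left out. In the fit of the HFD libraries only Dnajb2 was called (adjusted p = 0.015) and Stip1 and Ahsa2 were not (0.0591 and 0.0688), and with library number as a covariate none of the 3 was, at log2 differences of 0.35 to 0.36. The count of chaperone genes called was 14, 5, 4, 2 and 4 without HFD knockout 1, 2, 3, 4 or 5, against 4, 3, 4, 6 and 16 without HFD wild-type 1, 2, 3, 4 or 5. It was 0 by edgeR without the muscle-rich libraries, where the median was 0.35 and 18 were higher at an unadjusted p under 0.05. With all libraries DESeq2 called 22 and limma-voom 15. The fit of the 10 HFD libraries alone called none of the 36, with or without the muscle score, although 29 and 28 were higher at an unadjusted p under 0.05 with and without it, and the fit with muscle and liver scores called 3.

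The level of the chaperone list climbed with library number within wild-type and on into knockout, where number 4 lay below number 3. The mean log2 CPM of its 36 genes was 6.12, 6.17, 6.38, 6.32 and 6.50 in HFD knockout 1 to 5, against 5.48, 5.62, 5.66, 5.97 and 6.05 in HFD wild-type 1 to 5, where replicates follow the order of the library numbers. HFD wild-type 5 and HFD knockout 1, whose library numbers adjoin, were thus closer to each other than the ends of the wild-type group. In HFD knockout 1 against wild-type the median difference was 0.29, no member was called by edgeR and 8 were higher at an unadjusted p under 0.05. With library number as a covariate in the 10 HFD libraries the median was 0.14, and none of the 36 was called or reached an unadjusted p under 0.05, against 28 without it. For this list genotype and library number cannot be told apart.

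**Figure D4:**
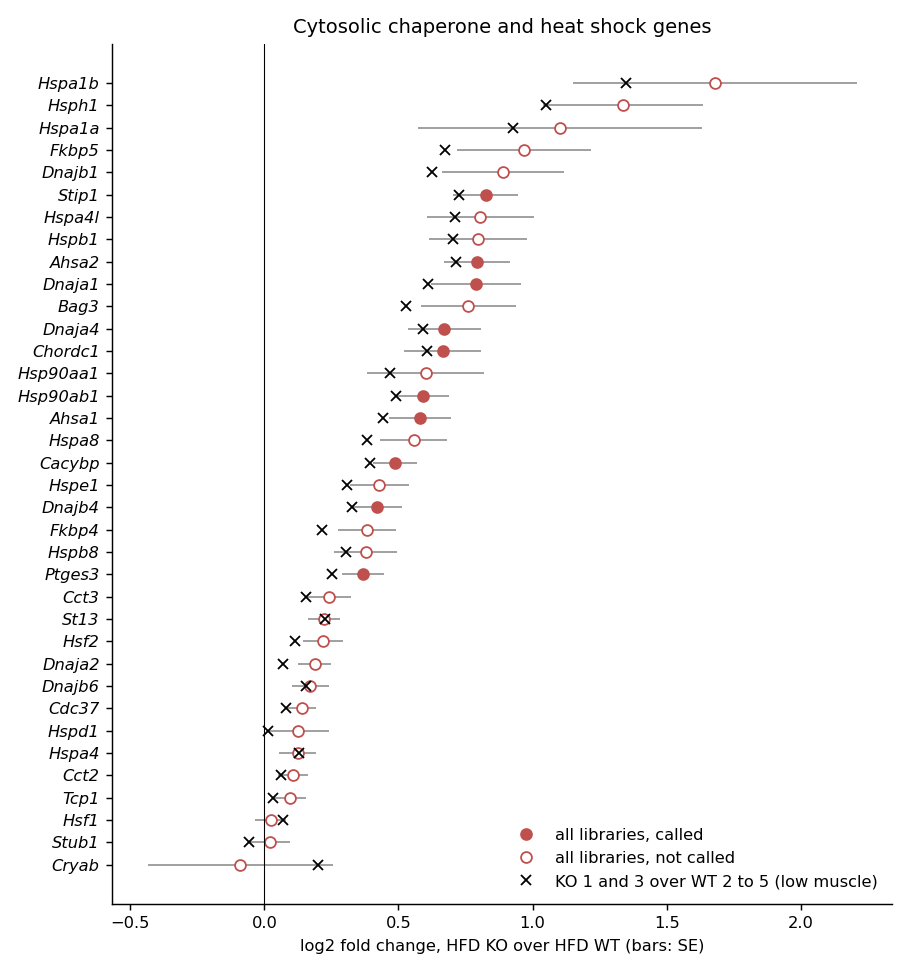
Log2 fold change of HFD knockout over HFD wild-type for 36 cytosolic chaperone and heat shock genes, ordered by size, with SE bars. Filled circles were called and open circles were not; crosses give the value in the low-muscle libraries, knockout 1 and 3 over wild-type 2 to 5, and 35 genes lie to the right of 0 with either set of libraries.

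The heat shock factor binds inverted repeats of the letters GAA, so the promoters of the called chaperone genes were searched for GAANNTTC or TTCNNGAA on both strands. Of the 10 genes, 9 had a RefSeq promoter entry, with 13 windows of 250 bases between them. Dnaja1, Dnaja4 and Dnajb4 held the motif, in 1 window each, and 12.8% of all 32851 windows did. These 3 windows are printed (RefSeq, build GRCm38.p6), along the gene's strand and with the motif in capitals.
Dnaja1 (chr4:40722218-40722467, plus strand): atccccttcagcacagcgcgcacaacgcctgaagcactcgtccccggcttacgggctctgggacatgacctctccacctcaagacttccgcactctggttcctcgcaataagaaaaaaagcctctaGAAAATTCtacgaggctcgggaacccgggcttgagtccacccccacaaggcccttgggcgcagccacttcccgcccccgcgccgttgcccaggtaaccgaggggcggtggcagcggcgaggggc
Dnaja4 (chr9:54699309-54699558, plus strand): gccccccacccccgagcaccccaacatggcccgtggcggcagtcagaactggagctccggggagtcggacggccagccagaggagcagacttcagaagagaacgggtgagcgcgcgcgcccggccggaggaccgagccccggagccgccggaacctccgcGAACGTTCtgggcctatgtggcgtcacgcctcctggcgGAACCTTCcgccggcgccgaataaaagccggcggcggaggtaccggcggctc
Dnajb4 (chr3:152193846-152194095, minus strand): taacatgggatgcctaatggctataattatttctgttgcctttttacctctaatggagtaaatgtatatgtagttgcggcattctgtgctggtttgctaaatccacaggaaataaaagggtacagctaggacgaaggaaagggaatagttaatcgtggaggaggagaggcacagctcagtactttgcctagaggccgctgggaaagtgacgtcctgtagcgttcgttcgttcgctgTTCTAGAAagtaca

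Dnaja4 held the motif at 2 places of the printed window. Hsp90ab1 was searched for in the same table and had no entry.

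Protein degradation genes made a smaller group of rises. Of 32 proteasome genes, 3 rose and none fell, against 0.31% and 0.226% of all genes tested. Above the wild-type level were 31, with a median of 0.22. In 15 of the 32 genes the knockout values were all above the wild-type values, as in 1.66% of all genes tested. Psmd7, a lid subunit of the 19S cap, stood at 35.3, 38.7, 37.2, 38.3 and 37.7 CPM in HFD knockout 1 to 5, against 30.4, 28.7, 29.0, 31.9 and 30.2 CPM in HFD wild-type 1 to 5. Both groups were tight, and the rise of 0.32 ± 0.05 was called without and with the muscle score (adjusted p = 0.0095 and 0.0357). Psma3 and Psmb7, subunits of the 20S core, rose by 0.27 ± 0.05 and 0.29 ± 0.06 (adjusted p = 0.0352 and 0.0426) and were not called with the muscle score (adjusted p = 0.0911 and 0.0923). Psma4 had 0.22 ± 0.05 and did not pass (adjusted p = 0.0571). By edgeR no proteasome gene was called without HFD knockout 4 (24 higher at an unadjusted p under 0.05) or without the muscle-rich libraries (5 higher, median 0.14), nor without the liver-rich libraries (18 higher) or with muscle and liver scores (20 higher). With library totals none was called either, 3 were higher and 1 lower at an unadjusted p under 0.05, against 26 and 0 with TMM factors, and the median was 0.075 against -0.15 over all genes. With library number as a covariate the median was 0.078, with no call and 2 higher at that p. Calls numbered 5 without HFD knockout 1 and 1 without any 1 of HFD knockout 2 or 5 or HFD wild-type 1, 2 or 3, and with all libraries 18 by DESeq2 and 6 by limma-voom.

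Other protein handling genes outside the proteasome list also rose. Adrm1, the proteasome's ubiquitin receptor, rose by 0.38 ± 0.07 (adjusted p = 0.0265). Sqstm1, the autophagy receptor p62, stood at 173 to 225 CPM in HFD knockout and 142 to 170 CPM in HFD wild-type and rose by 0.46 ± 0.09 (adjusted p = 0.0394). Ubxn4, which recruits the p97 ATPase to the endoplasmic reticulum, rose by 0.35 ± 0.06 (adjusted p = 0.0265). Tomm7, a small subunit of the mitochondrial outer membrane import channel, rose by 0.44 ± 0.08, and Tbca, a tubulin-folding cofactor, by 0.29 ± 0.05 (adjusted p = 0.0303 and 0.0262). Of these 5 genes Ubxn4 was also called with the muscle score (adjusted p = 0.0392). Each lost its call with 5 to 7 of the 10 libraries left out in turn, HFD knockout 4 and 5 and HFD wild-type 2 among them for each gene, at adjusted p up to 0.127. Of 30 genes of the unfolded protein and integrated stress response, the endoplasmic reticulum's own folding programme, none was called by edgeR, DESeq2 or limma-voom, 1 was higher and 2 were lower at an unadjusted p under 0.05 by edgeR, and the median was -0.058. Its smallest adjusted p was that of Dnajb9, an endoplasmic reticulum DNAJ protein (0.39 ± 0.13, adjusted p = 0.191).

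Among the genes that fell, several are known from blood vessels and stroma. Tgfbr3, the TGF-beta co-receptor betaglycan, stood at 85.8, 79.3, 74.8, 73.5 and 62.2 CPM in HFD knockout 1 to 5, against 108, 123, 118, 104 and 96.1 CPM in HFD wild-type 1 to 5. The ranges were separate, and Tgfbr3 fell by 0.55 on the log2 scale (SE 0.09, adjusted p = 0.0095; 0.026 with the muscle score). Emcn, a sialomucin of capillary and venous endothelium, stood at 11.5, 11.0, 13.1, 10.6 and 10.9 CPM in HFD knockout 1 to 5, against 14.7, 15.7, 13.8, 15.5 and 15.7 CPM in HFD wild-type 1 to 5. It fell by 0.40 (SE 0.08, adjusted p = 0.0456; 0.0911 with the muscle score). Cspg4, the pericyte proteoglycan NG2, averaged 105 ± 5.47 CPM in HFD knockout and 128 ± 4.96 CPM in HFD wild-type (SD, n = 5 each) and fell by 0.29 (SE 0.06, adjusted p = 0.043; 0.0911 with the muscle score). In bulk tissue, fewer cells of a type and less RNA per cell cannot be told apart.

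Of 20 endothelial markers, Emcn fell, none rose and 19 were below the wild-type level, with a median of -0.21, which was -0.090 in the low-muscle libraries and -0.0031 with library number as a covariate. Their summed level was 995 to 1208 CPM in HFD knockout and 1191 to 1300 CPM in HFD wild-type, and none was at 0. Erg, an endothelial transcription factor, and Pecam1, the junction protein CD31, had log2 differences of -0.46 ± 0.10 and -0.33 ± 0.08 that did not pass (adjusted p = 0.0578 and 0.0711). Of 13 smooth muscle and pericyte markers, Cspg4 fell and none rose, and the summed level was 565 to 635 CPM in HFD knockout and 633 to 705 CPM in HFD wild-type. The part of these marker levels in the falls was not tested. Abcb1a and Abcg2, drug efflux pumps found in capillary endothelium among other cells, fell by 0.49 and 0.65 (SE 0.11 each, adjusted p = 0.0481 and 0.0129). Car4, a membrane-bound carbonic anhydrase, fell by 0.35 (SE 0.08, adjusted p = 0.0491), and Cd38, an NAD-consuming surface enzyme, by 0.51 (SE 0.08, adjusted p = 0.0122). Abcg2 and Cd38 were also called with the muscle score (adjusted p = 0.0276 for both). Emcn lost its call without any 1 library other than HFD knockout 3, Cspg4, Abcb1a and Car4 without any 1 other than HFD knockout 1 and HFD wild-type 5, and Abcg2 and Cd38 without HFD knockout 4, at adjusted p up to 0.167. Tgfbr3 kept its call with each library left out and lost it in the HFD libraries only (adjusted p = 0.0591).

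Further falls are given by what the genes code for; no list of such genes was tested. Cdon, a cell surface protein of the immunoglobulin family, stood at 26.8, 23.2, 23.8, 19.4 and 18.4 CPM in HFD knockout 1 to 5, against 39.5, 48.0, 45.4, 38.4 and 29.1 CPM in HFD wild-type 1 to 5. It fell to 0.557 of the wild-type level (log2 change -0.84 ± 0.15, adjusted p = 0.0218; 0.0364 with the muscle score). Ptprk, a receptor tyrosine phosphatase, fell by 0.53 (SE 0.11), Sema6a, a transmembrane semaphorin, by 0.81 (SE 0.17), and Pcdh17, a protocadherin, by 0.96 (SE 0.20), with adjusted p of 0.043, 0.0448 and 0.0443. Cdh9, a cadherin, fell by 0.83 (SE 0.17) and Gldn, gliomedin, by 1.10 (SE 0.23), with adjusted p of 0.0433 and 0.0448. Col8a1, a short-chain collagen of vessel walls, fell by 0.75 (SE 0.16, adjusted p = 0.0448), and Mmp28, a secreted metalloproteinase, by 0.67 (SE 0.12, adjusted p = 0.0252). Of 36 extracellular matrix genes, none fell, 30 were below the wild-type level, and the median was -0.28; the 1 member that rose was Col6a6. Tnk2, a CDC42-binding kinase, and Dusp4, a MAP kinase phosphatase, fell by 0.78 (SE 0.17) and 1.05 (SE 0.19), with adjusted p of 0.0481 and 0.0265. Prickle2, a planar cell polarity protein, fell by 0.46 (SE 0.09, adjusted p = 0.0368). Lrrc8d, a subunit of volume-regulated anion channels, fell by 0.32 (SE 0.05, adjusted p = 0.0095).

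The falls with the largest fold changes included a transcriptional coactivator and a nuclear receptor. Eya2, a transcriptional coactivator with phosphatase activity, stood at 1.78, 0.924, 2.20, 1.10 and 1.5 CPM in HFD knockout 1 to 5, against 4.21, 3.71, 4.64, 4.36 and 4.53 CPM in HFD wild-type 1 to 5. No knockout library came near the lowest wild-type library. Eya2 fell to 0.35 of the wild-type level (log2 change -1.51 ± 0.23, adjusted p = 0.0095; 0.0105 with the muscle score). Tram2, a membrane protein linked to collagen synthesis, stood at 3.77, 3.10, 3.05, 2.58 and 2.88 CPM in HFD knockout 1 to 5, against 8.72, 6.04, 12.0, 5.59 and 5.87 CPM in HFD wild-type 1 to 5. Wild-type values were uneven, and Tram2 fell to 0.403 of their mean (log2 change -1.31 ± 0.19, adjusted p = 0.00531; 0.0105 with the muscle score). Rorb, an orphan nuclear receptor of the ROR family, fell by 1.14 (SE 0.20), Tbx2, a T-box factor, by 0.59 (SE 0.13), Zfp608 by 0.82 (SE 0.16) and Zfp518b by 0.58 (SE 0.10), with adjusted p of 0.0204, 0.0481, 0.0279 and 0.0252. Wwc1, the Hippo pathway scaffold KIBRA, stood at only 0.217 to 0.678 CPM in HFD knockout and 1.11 to 1.58 CPM in HFD wild-type and fell by 1.46 (SE 0.32, adjusted p = 0.0491). With the muscle score the calls of Eya2, Tram2, Rorb, Wwc1, Zfp608, Zfp518b, Cdon, Mmp28 and Lrrc8d held, and those of Tbx2, Ptprk, Sema6a, Pcdh17, Cdh9, Gldn, Col8a1, Tnk2, Dusp4 and Prickle2 did not, at adjusted p between 0.0607 and 0.0919. Of these 19 falls, Eya2, Tram2 and Lrrc8d were called whichever library was left out, and the others lost the call in 3 to 8 of the 10 cases. Across all alternatives to the main fit, Eya2, Tram2 and Lrrc8d lost the call in 6, 9 and 10.

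Thermogenic genes gave no common direction. Elovl3 was the 1 gene of 25 in the thermogenesis list that was called, and 19 were above the wild-type level. The list's median was 0.081, and -0.053 in the low-muscle libraries. With library totals in place of TMM factors it was -0.042, against -0.15 over all genes. Ucp1 stood at 2391, 2327, 2832, 3157 and 4055 CPM in HFD knockout 1 to 5, against 2185, 3108, 1695, 3337 and 3053 CPM in HFD wild-type 1 to 5. The groups overlapped almost entirely, with a log2 difference of 0.14 ± 0.21 (adjusted p = 0.836). Dio2, the deiodinase that makes active thyroid hormone, stood at 171, 163, 109, 188 and 265 CPM in HFD knockout 1 to 5, against 48.3, 84.7, 68.1, 136 and 191 CPM in HFD wild-type 1 to 5, a difference of 0.77 ± 0.36 (adjusted p = 0.391). Ppargc1a, the coactivator of mitochondrial biogenesis, and Cidea, a lipid droplet protein of brown fat, had differences of 0.31 ± 0.24 and 0.19 ± 0.12 (adjusted p = 0.647 and 0.549). Fgf21, a secreted metabolic hormone, averaged 0.767 ± 0.256 CPM in HFD knockout and 1.02 ± 0.245 CPM in HFD wild-type (SD, n = 5 each, adjusted p = 0.651). Lep, leptin, ranged between 25.6 and 258 CPM in HFD knockout and between 173 and 460 CPM in HFD wild-type (log2 difference -0.86 ± 0.50, adjusted p = 0.509).

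Respiratory chain genes lay slightly above the wild-type level as lists and had no call by edgeR. All 36 genes of complex I were above the wild-type level, with a median of 0.22, and so were all 28 tested genes of complexes II to V, with a median of 0.24. At an unadjusted p under 0.05, 14 and 13 of them were higher, against 2256 of all 17717 genes tested in either direction. DESeq2 called 3 and 1, and limma-voom none. With the muscle score these medians were 0.17 and 0.20, in the low-muscle libraries 0.033 and 0.065, and without the liver-rich libraries 0.10 and 0.13. With library totals they were 0.083 and 0.11, against -0.15 over all genes, with 3 and 2 genes higher at an unadjusted p under 0.05. With library number as a covariate they turned to -0.046 and -0.037, with none at that p. The 26 genes of mitochondrial fatty acid oxidation had no call by edgeR, DESeq2 or limma-voom, 1 gene lower at an unadjusted p under 0.05 and a median of 0.033, which was -0.13 in the low-muscle libraries and -0.10 with library totals. The medians of the chaperone, cholesterol and fatty acid synthesis lists were 0.36, 0.31 and 0.28 in the low-muscle libraries, 0.32, 0.14 and 0.11 with library totals and 0.14, 0.28 and 0.19 with library number as a covariate. In the fit of the HFD libraries alone, neither the cholesterol nor the fatty acid synthesis list had a call. At an unadjusted p under 0.05, 13 and 12 of their genes were higher there and 1 and 0 lower. With library number added, 2 and 1 were higher and 0 lower at that p, and none was called.

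**Figure D5:**
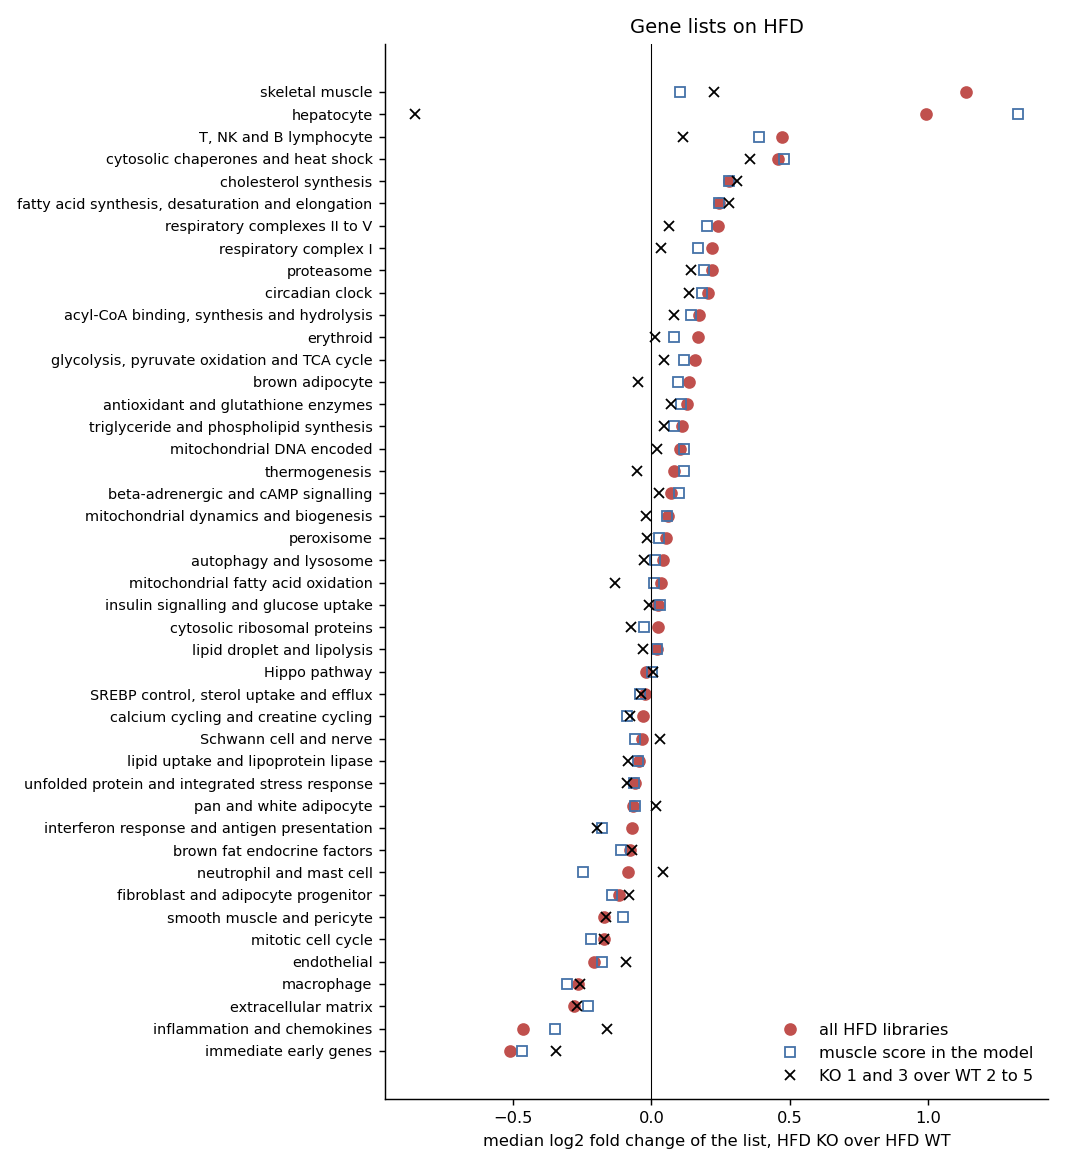
Median log2 fold change of HFD knockout over HFD wild-type in 44 gene lists, ordered by the value from all HFD libraries (red circles), with the value with the muscle score in the model (blue squares) and in low-muscle libraries, knockout 1 and 3 over wild-type 2 to 5 (crosses). The skeletal muscle median is 1.14 by all libraries and 0.10 with the muscle score, the hepatocyte median turns to -0.85 in the low-muscle libraries, and the chaperone, cholesterol and fatty acid synthesis medians stay above 0.2 in all 3.

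Further genes rose outside these groups. Gsta3, a glutathione S-transferase, stood at 8.54, 8.46, 4.20, 9.24 and 5.02 CPM in HFD knockout 1 to 5, against 2.23, 1.26, 2.89, 1.85 and 3.24 CPM in HFD wild-type 1 to 5. It rose 3.09-fold (log2 change 1.63 ± 0.29, adjusted p = 0.0218; 0.0378 with the muscle score), and as a member of a family of similar genes it can share reads with its paralogs. Tbc1d9, a Rab GTPase-activating protein, stood at 11.2, 11.5, 12.6, 11.5 and 14.0 CPM in HFD knockout 1 to 5, against 6.04, 7, 6.15, 7.05 and 8.10 CPM in HFD wild-type 1 to 5. Elmod2, a GTPase-activating protein for ARL2, averaged 40.9 ± 3.47 CPM in HFD knockout and 25.4 ± 1.73 CPM in HFD wild-type (SD, n = 5 each). Tbc1d9 and Elmod2 rose by 0.82 ± 0.11 and 0.69 ± 0.11 (adjusted p = 0.00274 and 0.0095) and held with each library left out and with the muscle score. Across all alternatives to the main fit their calls ended in 5 and 7, the fit with library number as a covariate among them.

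Fcor, an adipose corepressor of the transcription factor FOXO1, stood at 12.9, 15, 11.2, 14.4 and 12.1 CPM in HFD knockout 1 to 5, against 8.76, 8.09, 8.97, 8.74 and 7.93 CPM in HFD wild-type 1 to 5. It rose by 0.63 ± 0.10 (adjusted p = 0.0095, and 0.0276 with the muscle score) and was called whichever library was left out. Across all alternatives to the main fit the call of Fcor ended in 9. Esr1, estrogen receptor alpha, rose by 0.70 ± 0.13 (adjusted p = 0.0337; 0.068 with the muscle score), and its value in HFD knockout 3, 10.3 CPM, lay within the wild-type range of 9.29 to 11.6 CPM. Btaf1, an ATPase that removes TBP from DNA, rose by 0.50 ± 0.09 (adjusted p = 0.0218). Col6a6, a collagen VI chain, stood at 0.767, 1.46, 0.837, 1.6 and 1.97 CPM in HFD knockout 1 to 5, against 0.779, 0.231, 0.489, 0.456 and 0.418 CPM in HFD wild-type 1 to 5, so its highest values were in the muscle-rich libraries of each genotype. Its log2 change was 1.48 ± 0.30 (adjusted p = 0.0428), 1.14 with the muscle score (adjusted p = 0.0408) and 0.86 in the low-muscle libraries. Gsta3, Esr1, Btaf1 and Col6a6 lost their calls with 4 to 7 of the 10 libraries left out in turn.

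The genotype effect on chow, from 3 knockout and 4 wild-type libraries, was set beside that on HFD. On chow 187 genes were called (1.06% of genes tested), and 9 of them were called in the same direction on HFD, which is 9.47% of the HFD calls and 4.81% of the chow calls. None was called in opposite directions. The 9 were Dbi, Gsta3, Anp32e, Tbc1d9, Elmod2 and Sqstm1, which code for the binding protein, an enzyme, a histone chaperone, 2 GTPase-activating proteins and an autophagy receptor, together with Gldn, Mmp28 and Zfp518b. Anp32e rose by 0.24 ± 0.04 on HFD and by 0.24 on chow (adjusted p = 0.0262 and 0.0442). Tbc1d9 and Elmod2 rose by 1.74 and 1.49 on chow (adjusted p = 4.27e-06 and 2.02e-05), and the tests of the difference between diets did not pass (adjusted p = 0.0527 and 0.0844). Of the 95 genes called on HFD, 75 had the same sign on chow, as had 56.1% of all genes tested. Dio2, Ppargc1a and Lep, not called on HFD, were called on chow with changes of 1.92, 1.59 and -3.24, and the tests of the difference between diets did not pass (adjusted p = 0.495, 0.229 and 0.308).

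The difference between the diets' genotype effects was called for 16 genes (0.0903% of genes tested), of which Dbi, Insig1 and Lrrc8d were also called on HFD. Insig1 had a genotype effect of 0.87 on HFD and -0.041 on chow, a difference of 0.91 ± 0.15 (adjusted p = 0.0377). Lrrc8d had -0.32 on HFD and 0.17 on chow, a difference of -0.49 ± 0.08. Dbi fell by 2.45 on HFD and by 3.39 on chow, a difference of 0.94 ± 0.15 (adjusted p = 0.0377 for both genes). Scd1, whose effect on chow was 0.081, had a difference of 0.82 ± 0.22 that did not pass (adjusted p = 0.193). The other genes named by this test were called on chow and not on HFD. Socs2, a feedback inhibitor of cytokine and growth hormone signalling, had -0.29 on HFD and 1.20 on chow, and Noct, a rhythmic phosphatase, 0.24 on HFD and 1.39 on chow. Slc3a2, the heavy chain of amino acid exchangers, had 0.35 on HFD and 1.28 on chow, and Gulp1, an engulfment adaptor, -0.32 on HFD and 1.14 on chow. Cmtm6, a membrane protein that stabilises PD-L1, Sh3pxd2a, a podosome scaffold, and Sav1, a Hippo pathway scaffold, had -0.11, -0.33 and 0.02 on HFD and 0.53, 0.67 and 0.65 on chow. With the muscle score no gene passed this edgeR test, with 1453 at an unadjusted p under 0.05 against 1837 without the score. None passed without HFD knockout 2 or without HFD wild-type 2, and DESeq2 called 186 with all libraries. Chow and HFD libraries also carry separate ranges of library numbers, which cannot be told apart from diet.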

How the data were processed

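RNA sequencing of BAT was analysed from 1 table of whole-number counts per gene that the authors deposited. Per the submitters' processing notes, FastQC, STAR 2.7.8a, RSEM 1.3.0, DESeq and genome build GRCm39 were named without their roles; counts may be rounded RSEM estimates, and no source used here gives the annotation, strand setting or filters. In R 4.3.3, edgeR 4.0.16 (filterByExpr, TMM, quasi-likelihood F test, two-sided, Benjamini-Hochberg over 17717 genes) modelled all 17 libraries together, each group with its own coefficient, and DESeq2 1.42.0 and limma 3.58.1 served as alternatives. The SE was derived from the log2 fold change and F. The muscle score was added as a covariate. Library depth was 60 to 105 megacounts on HFD, so replicate spread limits all but weak genes. Single library values were compared by exact permutation tests. The code was tested on simulated counts. Gene lists, members and the naming rule were chosen with earlier results of these data known. The rule took Dbi, preset genes, called genes that reached a mean of 1 CPM (35 at most per direction), the 5 list members with the smallest adjusted p and the 10 leading interaction genes; the text names part of them, and 2 genes are not reported here. Coordinates of promoters are RefSeq GRCm38.p6 and were not joined to the counts' build.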

Additional observations from a re-analysis of the deposited data

Results flagged for a closer look

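In 7 of 182 groups of 5 libraries, 2 per named gene, 1 library lay far from the other 4; chance gives this in about 1 of 20 groups. Dbi stood at 165 CPM in HFD knockout 4 and at 111 to 126 CPM in the other HFD knockout libraries. Insig1 stood at 413 CPM in HFD knockout 3, against 329 to 345 CPM in the others, and Echdc1 at 213 CPM in HFD knockout 4, against 188 to 195 CPM. Esr1 was low in HFD knockout 3, at 10.3 CPM, against 17.5 to 18.8 CPM in the others. Adrm1, Ptprk and Sav1 stood apart in HFD wild-type 3, at 49.3, 10.7 and 48.6 CPM, with 58.2 to 61.3, 12.7 to 13.2 and 41.3 to 43.1 CPM in wild-type 1, 2, 4 and 5.

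The genotype effect differed between the diets by a test of the difference itself (HFD effect minus chow effect, log2) for 10 named genes. The differences were 0.942 for Dbi, 0.909 for Insig1, -0.49 for Lrrc8d, -0.631 for Cmtm6, -1.5 for Socs2, -1 for Sh3pxd2a, -1.46 for Gulp1, -0.935 for Slc3a2, -1.15 for Noct and -0.623 for Sav1. Their adjusted p lay between 0.0377 and 0.0395, and none passed with the muscle score in the model.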

How the results depend on the processing

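The 95 calls (55 higher, 40 lower) numbered 581 (260 and 321) with DESeq2, 192 (91 and 101) with limma-voom, 421 (33 and 388) with library totals, 57 (33 and 24) with no filter, 17 (12 and 5) in HFD libraries only, 62 (39 and 23) with the muscle score, 52 (34 and 18) with that score as a mean of log2 values, 16 (13 and 3) with muscle and liver scores, 12 (8 and 4) in HFD libraries only with the muscle score, 5 (4 and 1) without muscle-rich libraries, 19 (14 and 5) without liver-rich libraries and 1 (0 and 1) in HFD knockout 1 against wild-type, the run of adjoining library numbers, where the lone knockout library is assumed to vary like the other groups. With library number as a covariate, and without muscle-rich or liver-rich libraries, both chosen after seeing the data, 1 gene (0 and 1) was called each time, which was Dbi. They numbered 92 with DESeq2 size factors, 95 with TMM factors that leave out muscle, liver and mitochondrial genes and 130 with a mean of at least 1 CPM. Leaving out 1 library gave 20 to 207 calls, 14 to 93 higher and 6 to 114 lower. The 16 interaction calls numbered 186 with DESeq2, 63 with library totals, 0 with the muscle score and 0 to 33 with 1 library left out. Causes were not tested.

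Replicate numbers did not pair the libraries: same-numbered deviations correlated at -0.71 to 0.18, and no knockout library correlated best with its own number. With the replicate block in HFD libraries only, 23 genes were called (14 and 9), and 3 (2 and 1) with the muscle score added.

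Of the 65 named genes called, 36 were also called with the muscle score, 16 without HFD knockout 4 and 64 without HFD wild-type 5. With library number as a covariate, Sema6a alone of the 65 changed direction, to 0.020, and the other alternatives changed none that they tested. Uncalled differences that turned were those of Ucp1, at -0.11 without muscle-rich, -0.036 without liver-rich and -0.063 without muscle-rich or liver-rich libraries, -0.16 in the run of library numbers and -0.38 with library number; Ppargc1a, at -0.034 without muscle-rich libraries and -0.25 with library number; Gulp1, at 0.13 in the run and 0.26 with library number; and Sav1, at -0.13 with library totals, -0.011 to 0.069 with 1 library left out (-0.011 without HFD knockout 1) and -0.0019 without muscle-rich or liver-rich libraries. With library number Cidea turned to -0.091, Lep to 0.52, Slc3a2 to -0.028 and Erg to 0.0024.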

Other observations

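Immediate early genes, which respond within minutes to stimuli, lay mostly below the wild-type level in HFD knockout: edgeR called none of 23 (12 lower and 1 higher at an unadjusted p under 0.05), DESeq2 6 lower and 1 higher and limma-voom 2 lower and 1 higher, 22 were below the wild-type level and the median log2 difference was -0.51, -0.47 with the muscle score, -0.35 in the low-muscle libraries and -0.23 with library number as a covariate, where none was called by edgeR or reached an unadjusted p under 0.05. Jun stood at 75.7, 68.9, 80.6, 63.9 and 46.5 CPM in HFD knockout 1 to 5, against 142, 145, 99.4, 114 and 86.0 CPM in HFD wild-type 1 to 5 (-0.81 ± 0.18, adjusted p = 0.0571). Klf2 and Dusp1 differed by -0.84 ± 0.20 and -1.13 ± 0.27 (adjusted p = 0.0705 and 0.0722), with no overlap between genotypes. Of 20 macrophage markers none was called by edgeR, DESeq2 or limma-voom (1 higher and 1 lower at an unadjusted p under 0.05 by edgeR) and 18 were below the wild-type level, with a summed level of 1640 to 2461 CPM in HFD knockout and 1993 to 2433 CPM in HFD wild-type. These markers include Lpl, which is also in the adipocyte marker list, so the sum is not a measure of macrophage RNA alone. Among 23 inflammation and chemokine genes edgeR called none (4 lower at an unadjusted p under 0.05) and DESeq2 3 lower. Their median was -0.47, and -0.16 in the low-muscle libraries. Over all 17717 genes tested, 2256 had an unadjusted p under 0.05 by edgeR, in either direction.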
